A study of Homo sapiens with 9 samples.

Results

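The 30 genes described here are known transcriptional targets of the tumour suppressor p53. They were picked by gene symbol, and all 30 were found among the 25540 symbols of a table of RNA levels in CAL-1 cells. CAL-1 is a human cell line that stems from BPDCN (blastic plasmacytoid dendritic cell neoplasm), a blood cancer of plasmacytoid dendritic cell type. The study lowered KHSRP, a protein that binds AU-rich elements in messenger RNAs and speeds their decay, by CRISPR interference, in which a catalytically dead Cas9 fused to a repressor silences a promoter. It comprised 3 libraries of CAL-1 cells in the knockdown group KHSRPi#1, 3 in the knockdown group KHSRPi#2 and 3 of control cells labelled NTC, whose genotype is given as WT. All 9 share 1 batch in the labels, no group is labelled with a drug or an irradiation, and separate cultures are not named for the replicates. A p-value here thus weighs a difference against the scatter among libraries, which could be purely technical.

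p53 is a transcription factor that is held at a low level by MDM2, a ubiquitin ligase, together with its relative MDM4. DNA damage and other stresses release it, and it then binds response elements in its target genes, which arrest the cell cycle, repair DNA, trigger cell death through death receptors or mitochondria, and change metabolism. MDM2 is itself a target, so that the pathway limits its own activity. In unstressed cells many targets keep a basal level, in part through p53.

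The response elements were looked for in the promoter windows that RefSeq gives for the genes (GRCh38.p14, from 250 bases before to 50 bases after each start site). A match to the p53 response element, 2 half-sites of 10 bases with no spacer, with the central C and G of each half-site kept and at most 2 mismatches, was present in 4 of the 24 listed genes with a window, which is 16.7%. Among all tested genes with a window the share was 28 of 8336, or 0.336%. These matches are descriptions of letters, not sites of measured binding, and they mark which windows hold a match under these settings. A member without a match cannot be said to lack an element, since spacers and more distant bases were not searched. The matched bases are in capitals, and 5 bases of flank on each side are in lower case.
FAS: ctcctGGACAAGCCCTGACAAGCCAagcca
MDM2: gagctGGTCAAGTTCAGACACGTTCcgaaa
DDB2: gctccAAGCTGGTTTGAACAAGCCCtgggc
AEN: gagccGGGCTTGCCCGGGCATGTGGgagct
All lie on the plus strand, the strand of each gene. The match of FAS is at chr10:88991309-88991328 and begins 122 bases before a start site (offset -122), with 2 mismatches. That of MDM2, at chr12:68808923-68808942, also has 2 mismatches and begins at -94 from the nearer start site. The match of DDB2, at chr11:47214969-47214988, has 1 mismatch and spans the start, from offset -5. The match of AEN, at chr15:88621306-88621325, has 2 mismatches and begins at -34.

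KHSRP binds AU-rich elements, so the AU-rich nonamer TTATTTATT was looked for on the sense strand of the 3' UTR of 1 GENCODE 29 transcript per gene. It was present in 5 of the 25 members that were tested, or 20%, against 836 of 9700 tested genes, or 8.62%. The median 3' UTR was 1242 bases in the members and 1100.5 bases over all those genes. The 5 are AEN, PLK3, PPM1D, RRM2B and TNFRSF10B. One match is shown for 3 of them, with the nonamer in capitals.
AEN: cctgacctTTATTTATTtattaaca
PLK3: gaccacttTTATTTATTgtcagaca
PPM1D: agtgtattTTATTTATTtattattt

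Levels are given as TPM, a unit that corrects for transcript length and scales every library to the same total. The targeted gene, KHSRP, had 35.1, 35.1 and 35.1 TPM in KHSRPi#1, 35.8, 33.7 and 36.5 TPM in KHSRPi#2, and 253, 244 and 216 TPM in NTC, so both knockdown groups lay far below the controls. Between 13966 and 14462 symbols were above 0 per library, and the spacing of low values gave relative depths of 0.979 to 1.83 times that of NTC replicate 1. Of 13 plasmacytoid dendritic cell markers 11 had a mean of at least 1 TPM, with IRF8 the highest and IL3RA listed at 0 in all libraries. The way reads were counted is not given, so that 0 does not show that the IL3RA transcript was absent. The summed level of the 13 markers was 3938 to 4486 TPM in knockdown libraries and 3805 to 4322 TPM in NTC libraries, most of it IRF8. Within the list GZMB, the granzyme B gene, averaged 84.8 ± 24.3 TPM in KHSRPi#1, 82.2 ± 23.8 TPM in KHSRPi#2 and 41.2 ± 10.6 TPM in NTC (SD, n = 3 each), and TCL1A averaged 909 ± 29.7 TPM in KHSRPi#1, 889 ± 25.7 TPM in KHSRPi#2 and 802 ± 32.3 TPM in NTC. Both had all knockdown libraries above all controls, against 3.1% of all tested genes, with a limma adjusted p of 0.310 for each. Their part in the results on the p53 target genes was not tested. Markers of T cells, myeloid cells, fibroblasts and erythroid cells were all under a mean of 1 TPM, and of the B cell and epithelial markers only CD79A, at 1.18 TPM, and KRT8, at 1.96 TPM, reached it, with EPCAM listed at 0. Replicate 3 was set apart in each of the 3 groups on principal component 1, with 38.3% of the variance. These libraries scored 12.3 to 14.1 there, and the other 6 libraries -8.79 to -3.96, so each result below is given with that split in view.

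CAL-1 cells held transcripts of most of these genes. Of the 30, 25 had a mean of at least 1 TPM over the libraries and were tested beside 10914 other genes, for 10939 in all. In NTC cells 2 of the 25 averaged at least 100 TPM, 10 lay between 20 and 100, 5 between 10 and 20, and 8 under 10. CCNG1, which encodes cyclin G1, was the highest, at 123 ± 24.2 TPM (SD, n = 3), above 88.9% of tested genes. TRIAP1, encoding a small mitochondrial inhibitor of apoptosis, followed at 115 ± 7.15 TPM. MDM2 was next with 60.2 ± 7.36 TPM and CYFIP2, encoding a cytoplasmic partner of FMRP, after it with 55.6 ± 9.61 TPM. The means of MDM2 and CYFIP2 differed by less than the SD of either. Those of CCNG1 and TRIAP1 differed by less than the SD of CCNG1 but more than that of TRIAP1.

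CDKN1A, which encodes the cell cycle inhibitor p21 and is the best known p53 target, was low in these cells. It averaged 7.92 ± 1.80 TPM in NTC, above 26.6% of tested genes. TP53I3, a quinone oxidoreductase gene, was the lowest of the tested members, with 3.34 ± 0.771 TPM.

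The other 5 members were too low to test. PHLDA3, an inhibitor of AKT, and SPATA18, a gene of mitochondrial quality control, were listed at 0 in all 9 libraries. DRAM1, a gene of autophagy, was listed at 0 in 8 libraries and EDA2R, a receptor of the TNF receptor family, in 7. TP53INP1, a stress-induced nuclear protein gene, averaged 0.572 TPM in KHSRPi#1, 0.566 TPM in KHSRPi#2 and 0.700 TPM in NTC. For PHLDA3, SPATA18, DRAM1 and EDA2R, whether a 0 means silence or a level below detection cannot be told from TPM values without read counts. TP53INP1 was above 0 in all 9 libraries.

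**Figure D1:**
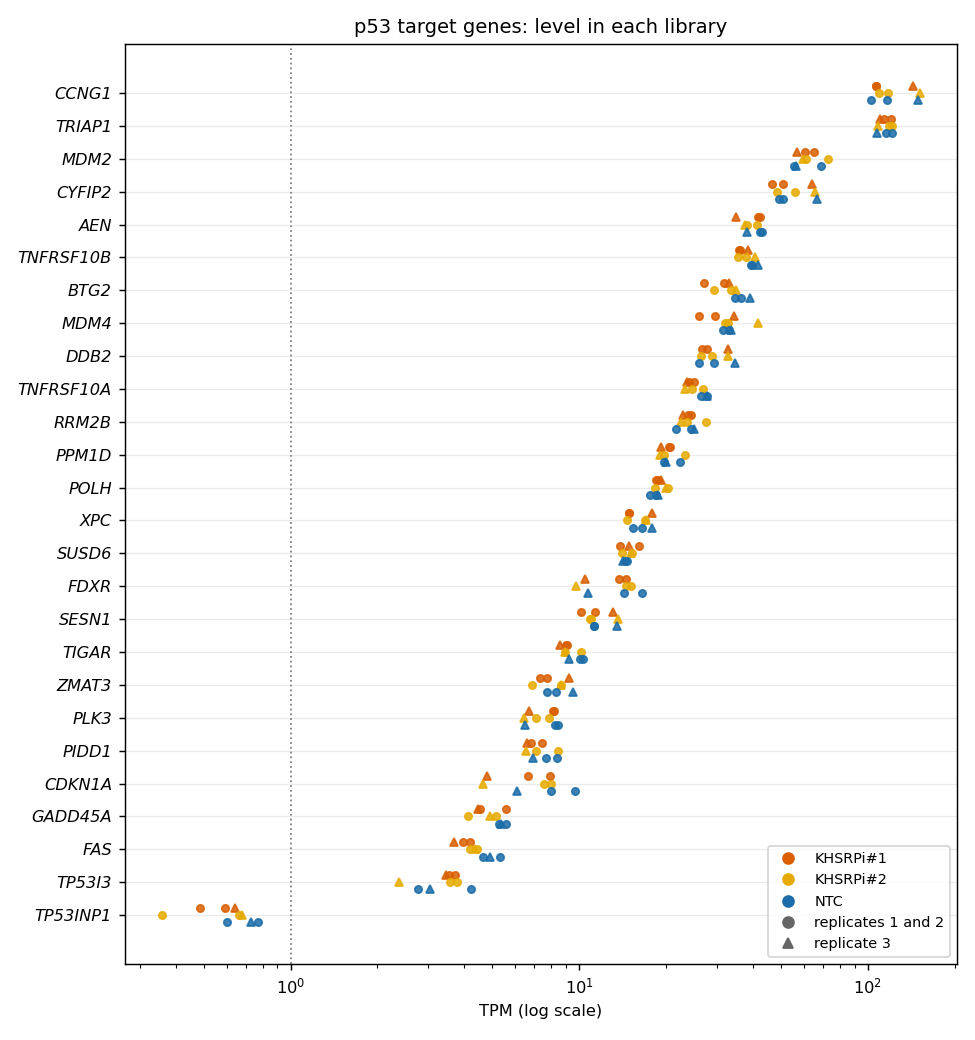
Level of each p53 target gene above 0 in every library, in TPM on a log axis, 1 symbol per library, coloured by group (KHSRPi#1, KHSRPi#2, NTC), with triangles for replicate 3 and circles for replicates 1 and 2. The dotted line marks 1 TPM, and the genes span from TP53INP1, under 1 TPM, to CCNG1 and TRIAP1 above 100 TPM, with the 3 groups close together on every line.

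The first question is whether the p53 target genes moved when KHSRP was lowered. None of them did so past the threshold. These are bulk libraries, in which a change in a few cells and a smaller one in every cell cannot be told apart. In the mean of both knockdown groups against NTC, limma called 0 of 25 members at an adjusted p under 0.05, against 0.0823% of all tested genes (9 of 10939). At an unadjusted p under 0.05 it found 3 members, FAS, BTG2 and TNFRSF10A, against 7.93% of all genes. All 3 were lower, against 2.61% of all genes that were lower at that p. The log2 fold changes, on the scale of log2(TPM + 1), which understates the change of low genes, ran from -0.24 for CDKN1A to 0.07 for POLH. For 24 of the 25 the 95% interval lay between -0.5 and 0.5, a 1.41-fold change either way, and CDKN1A was the exception.

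Small differences leaned downward. Of the 25 members 19 had a negative fold change, 76%, against 41.7% of all tested genes. Their median was -0.05 and that of all genes 0.02. After rescaling the libraries by median ratios 20 of the 25 were negative, against 50.9% of all genes, and after quantile normalization 20 against 50.3%. The members were chosen as one pathway and share regulators, so this count is a description with no test.

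Among the tested death receptor genes 3 of 3 had a negative fold change and 0 were called. FAS encodes the receptor for FAS ligand, which starts caspase activation at the membrane. It had 4.18, 3.97 and 3.68 TPM in KHSRPi#1, 4.42, 4.201 and 4.35 TPM in KHSRPi#2, and 4.63, 5.32 and 4.91 TPM in NTC. All 6 knockdown libraries lay below all 3 controls, and FAS was the 1 of 25 members of which this was true, against 1.57% of all tested genes. No member lay above the controls in this way, against 3.1% of all tested genes. The log2 fold change was -0.21 (SE 0.07, 95% interval -0.38 to -0.05), with an adjusted p of 0.516 in limma. An exact permutation test of the means gave a two-sided p of 0.0238, the smallest that 84 divisions allow, and an adjusted p of 0.510 over all genes. FAS shares 380 exonic bases, 8.93% of its own, with ACTA2 on the opposite strand, which averaged 1.76 TPM in KHSRPi#1, 2.25 TPM in KHSRPi#2 and 2.73 TPM in NTC. Whether the counting used strand is not stated in any label or header, so reads of both genes over these bases cannot be told apart. Of the 25 tested members 13 share exonic bases with a gene on the opposite strand.

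TNFRSF10A and TNFRSF10B encode the receptors of the death ligand TRAIL. TNFRSF10A had 24.1, 25.1 and 23.7 TPM in KHSRPi#1, 26.8, 24.6 and 23.2 TPM in KHSRPi#2, and 27.7, 26.3 and 27.7 TPM in NTC. The groups overlapped, through KHSRPi#2 replicate 1, and the log2 fold change was -0.14 (SE 0.06), with an adjusted p of 0.565 in limma. TNFRSF10B had 36.1, 35.7 and 38.5 TPM in KHSRPi#1, 37.9, 35.5 and 40.6 TPM in KHSRPi#2, and 39.7, 39.5 and 41.6 TPM in NTC. Here KHSRPi#2 replicate 3 lay among the controls, and the log2 fold change was -0.10 (SE 0.05, limma adjusted p = 0.685).

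The genes of cell cycle arrest and growth control were negative in 4 of 4, and 0 of 4 were called. BTG2, an antiproliferative partner of the CCR4-NOT deadenylase, had 31.8, 27.1 and 33.2 TPM in KHSRPi#1, 33.6, 29.3 and 34.8 TPM in KHSRPi#2, and 36.3, 34.7 and 39.2 TPM in NTC. All but KHSRPi#2 replicate 3, at 34.8 TPM, were below the lowest control. The log2 fold change was -0.21 (SE 0.08, 95% interval -0.39 to -0.04), with an adjusted p of 0.541 in limma. With a term for the replicate 3 libraries it was 0.0895.

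CDKN1A had 7.90, 6.64 and 4.79 TPM in KHSRPi#1, 7.99, 7.56 and 4.65 TPM in KHSRPi#2, and 9.69, 7.97 and 6.10 TPM in NTC. In each group the replicate 3 library was the lowest, at each replicate number the control was the highest, and the groups overlapped. The log2 fold change was -0.24 (SE 0.19, 95% interval -0.65 to 0.17), the widest interval of the members, with an adjusted p of 0.790 in limma and 0.141 with the term for replicate 3. Single libraries moved this fold change by more than 1.5 times: it was -0.099 without NTC replicate 1, -0.39 without NTC replicate 3, -0.15 without KHSRPi#1 replicate 3 and -0.13 without KHSRPi#2 replicate 3. GADD45A, a growth arrest gene, had a log2 fold change of -0.15 (limma adjusted p = 0.718). PLK3, a stress-responsive polo-like kinase gene, had -0.05 (limma adjusted p = 0.935).

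Among the genes that act back on p53 none was called. MDM2 had 60.7, 65.3 and 56.7 TPM in KHSRPi#1, 72.6, 60.9 and 59.9 TPM in KHSRPi#2, and 55.4, 68.7 and 56.5 TPM in NTC, with full overlap of the groups. Its log2 fold change was 0.06 (SE 0.09, 95% interval -0.13 to 0.25; limma adjusted p = 0.903). MDM4 had 26.0, 29.7 and 34.3 TPM in KHSRPi#1, 32.7, 31.9 and 41.7 TPM in KHSRPi#2, and 31.5, 33.0 and 33.6 TPM in NTC. Its log2 fold change was -0.01 (SE 0.10). PPM1D, the gene of the phosphatase WIP1 that reverses p53 phosphorylation, had -0.02, and CCNG1, whose product directs a phosphatase to MDM2, had -0.00098.

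In the DNA repair and nucleotide supply group, XPC and DDB2, which recognise damage for nucleotide excision repair, had log2 fold changes of -0.05 and -0.03. POLH, the gene of a translesion polymerase, had 0.07, and RRM2B, a ribonucleotide reductase subunit gene, 0.03. POLH was also the steadiest member, with a coefficient of variation of 4.54% over the 9 libraries, against 23.4% for CDKN1A. In the redox and metabolism group, SESN1, a regulator of mTORC1, had -0.04, TIGAR, a fructose bisphosphatase gene, -0.10, FDXR, the ferredoxin reductase gene, -0.08 and TP53I3 0.03. None of these 8 was called.

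The other genes of cell death with a test were AEN, an apoptosis-enhancing nuclease gene, at -0.06, PIDD1, the gene of a scaffold that activates caspase 2, at -0.09, CYFIP2 at -0.01 and TRIAP1 at 0.01. ZMAT3, a zinc finger RNA-binding protein gene, had -0.07, and SUSD6 0.04. PIDD1 shares 107 exonic bases with RPLP2, a highly expressed ribosomal protein gene on the opposite strand. Of the exonic bases of TIGAR 42.6% are shared with AC008012.1 on the same strand. On the opposite strand XPC shares 23.8% of its exonic bases with AC093495.1, TNFRSF10A 9.01% with AC100861.1 and SESN1 7.09% with AL390208.1. The levels of these genes, and of other members with shared bases, are thus uncertain. The 5 genes with the AU-rich nonamer shown above were not called, and their log2 fold changes were -0.06 for AEN, -0.05 for PLK3, -0.02 for PPM1D, 0.03 for RRM2B and -0.10 for TNFRSF10B. The 4 genes with a match to the response element in the promoter window had 0.06 for MDM2, -0.03 for DDB2, -0.06 for AEN and -0.21 for FAS.

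**Figure D2:**
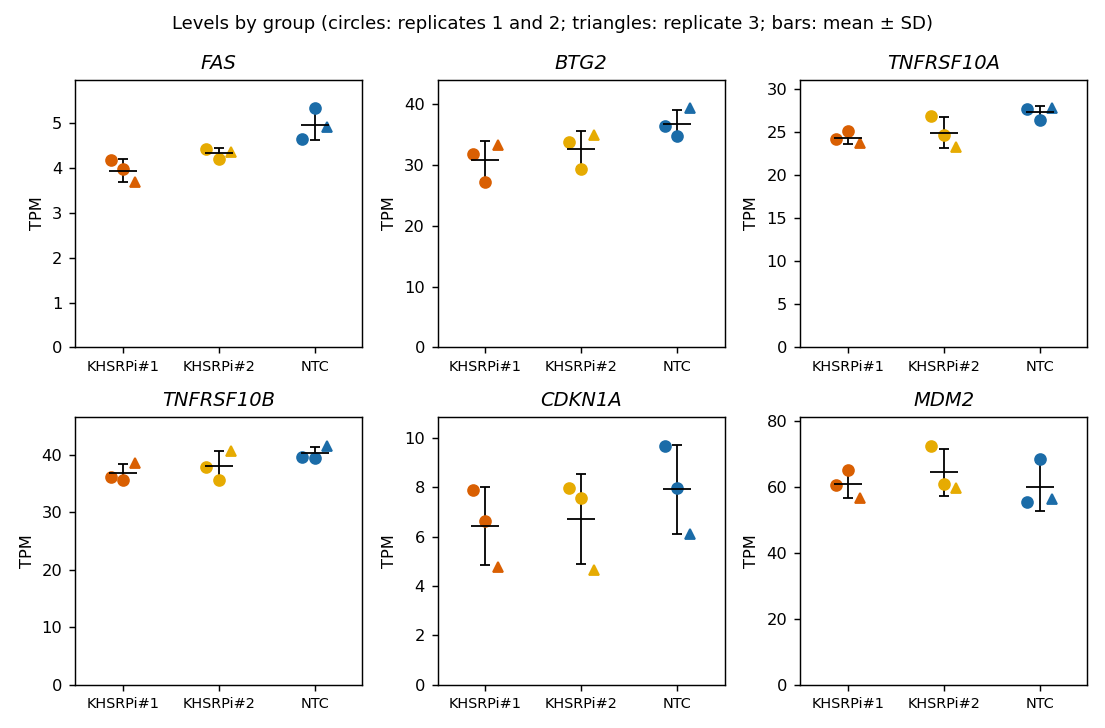
TPM per library for FAS, BTG2, TNFRSF10A, TNFRSF10B, CDKN1A and MDM2 in KHSRPi#1, KHSRPi#2 and NTC, from left to right, each axis starting at 0; triangles are replicate 3, circles replicates 1 and 2, and bars the mean ± SD of 3 libraries. FAS separates the 6 knockdown libraries from the 3 controls, with 3.68 to 4.42 TPM against 4.63 to 5.32 TPM, while MDM2 overlaps fully and CDKN1A is lowest in replicate 3 of every group.

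The groups KHSRPi#1 and KHSRPi#2 were each set against the same NTC libraries. In KHSRPi#1 limma called 0 of 25 members, against 0.0548% of all tested genes, and the median log2 fold change was -0.06, with 20 negative against 47.3% of all genes. At an unadjusted p under 0.05 there were 3 members, FAS, BTG2 and TNFRSF10A, against 5.24% of all genes. In KHSRPi#2 it called 0 of 25, also against 0.0548%, and the median was -0.04, with 17 negative against 38.1%, and 0 members had an unadjusted p under 0.05, against 6.93%. FAS had -0.27 in KHSRPi#1 (limma adjusted p = 0.876) and -0.16 in KHSRPi#2 (limma adjusted p = 0.738). BTG2 had -0.26 in KHSRPi#1 and -0.17 in KHSRPi#2, and TNFRSF10A had -0.16 in KHSRPi#1 and -0.13 in KHSRPi#2.

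The difference between the knockdown groups was tested directly. For KHSRPi#2 against KHSRPi#1 limma called 0 of 25 members and 0% of all genes, and at an unadjusted p under 0.05 it found 0 members and 115 of all genes, or 1.05%. A negative difference was present in 6 of 25 members, against 33% of all genes. The median difference of the members was 0.04 on the log2 scale. MDM4 differed most, with 0.23 (95% interval -0.02 to 0.48, limma adjusted p = 1.00), with a mean of 35.5 ± 5.45 TPM in KHSRPi#2 and 30.02 ± 4.15 TPM in KHSRPi#1 (SD, n = 3 each). The intervals of the members reached from -0.47 to 0.52.

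**Figure D3:**
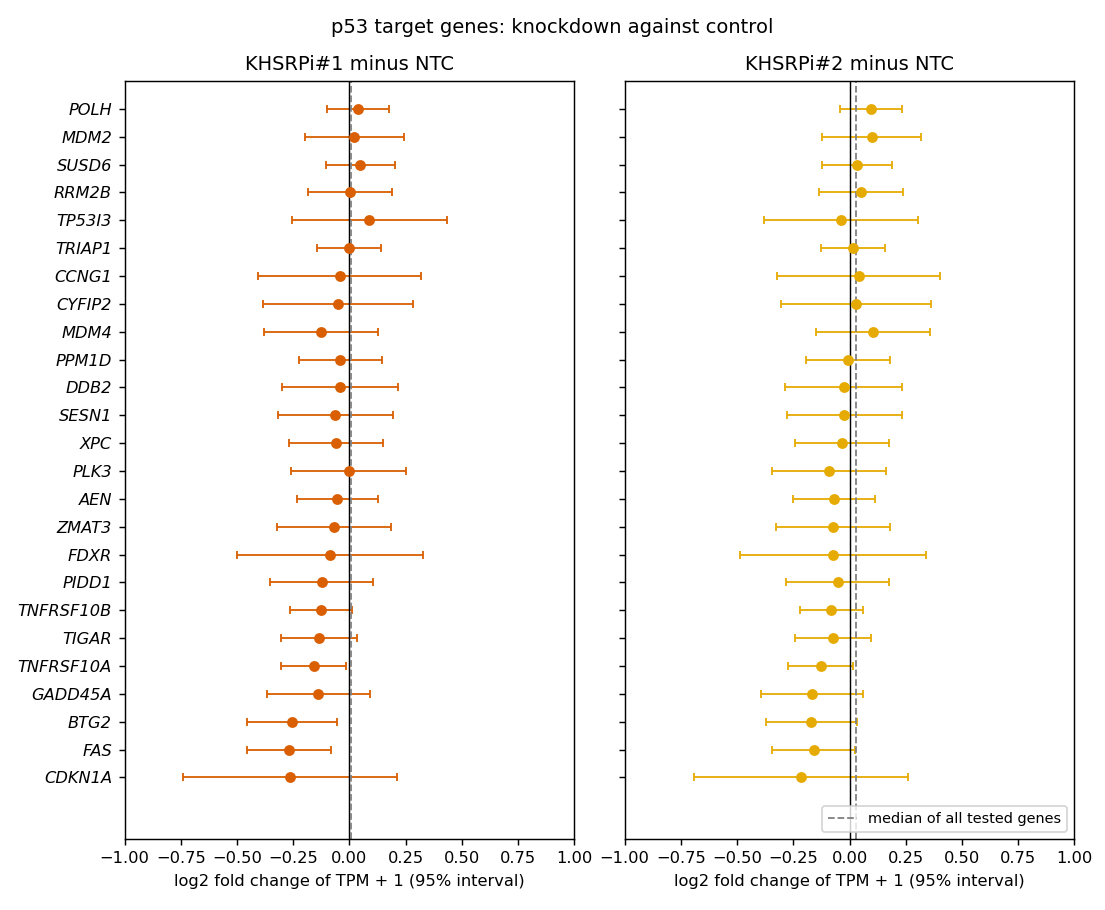
Log2 fold change of TPM + 1 with its 95% interval for the 25 tested p53 target genes, KHSRPi#1 minus NTC on the left and KHSRPi#2 minus NTC on the right, in the same gene order; the dashed line is the median of all tested genes. Most points lie left of the dashed line, FAS, BTG2 and TNFRSF10A are the genes with intervals below 0 in KHSRPi#1, and no gene has such an interval in KHSRPi#2.

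The replicate 3 libraries were compared with replicates 1 and 2 because these same data had set them apart on principal component 1, so the counts below describe that split and are no separate evidence of it. With the group in the fit, limma called 12 of 25 members between replicate 3 and replicates 1 and 2 at an adjusted p under 0.05, 7 higher and 5 lower. Of all tested genes 30.3% were called in this comparison, 18.7% higher and 11.6% lower. The labels give 1 shared batch and say nothing of how replicate 3 was made, so what sets replicate 3 apart was not tested. All 3 replicate 3 libraries lay above the other 6 in 7 of the 25 members, or 28%, against 16.5% of all genes. They lay below the other 6 in 5 members, or 20%, against 11%. These are the same 12 genes, and the same values gave the calls, so the separation is no further evidence.

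CCNG1 was higher in replicate 3, with 143 TPM in KHSRPi#1, 151 TPM in KHSRPi#2 and 150 TPM in NTC, against 102 to 118 TPM in replicates 1 and 2. Its log2 difference was 0.43 (SE 0.04, limma adjusted p = 6.01e-05). CYFIP2 was higher by 0.38, DDB2 and SESN1 by 0.27 each, MDM4 by 0.24, ZMAT3 by 0.21 and XPC by 0.17. DDB2 was called alike in 15 of 15 alternative fits. The result for XPC was weaker in 10 of 15, with a limma adjusted p of up to 0.216. That for ZMAT3 was weaker in 9 of 15, up to 0.173, and that for MDM4 in 2 of 15, up to 0.117.

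CDKN1A was lower in replicate 3, with 4.79 TPM in KHSRPi#1, 4.65 TPM in KHSRPi#2 and 6.10 TPM in NTC, against 6.64 to 9.69 TPM in replicates 1 and 2. Its log2 difference was -0.54 (SE 0.08, limma adjusted p = 0.000456), the largest of the members in size. FDXR had 10.5, 9.77 and 10.8 TPM in replicate 3 of KHSRPi#1, KHSRPi#2 and NTC, against 13.8 to 16.5 TPM in replicates 1 and 2, a log2 difference of -0.48. The log2 difference was -0.25 for PLK3, -0.16 for AEN and -0.12 for TRIAP1. Of 15 alternative fits the result was weaker in 1 for PLK3, in 2 for AEN and in 4 for TRIAP1.

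The split depended on the scaling. A negative difference was present in 42.3% of all tested genes before rescaling, 50.3% after median ratios and 51.3% after quantile normalization. In the members it was present in 14, 15 and 15 of 25. After median-ratio rescaling 6 members were higher and 6 lower, with XPC not called and MDM2 added to the lower ones. After quantile normalization 5 were higher and 8 lower, with ZMAT3 and XPC not called and TP53I3, PPM1D and PIDD1 added below. CCNG1, CYFIP2, DDB2, SESN1 and MDM4 stayed higher and CDKN1A, FDXR, PLK3, AEN and TRIAP1 lower under both. Without NTC replicate 3, and likewise without KHSRPi#1 replicate 3, 7 of the 25 were called. The share of all tested genes called under these rescalings and in these fits is not given here. These counts are thus no result about the members as against other genes.

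**Figure D4:**
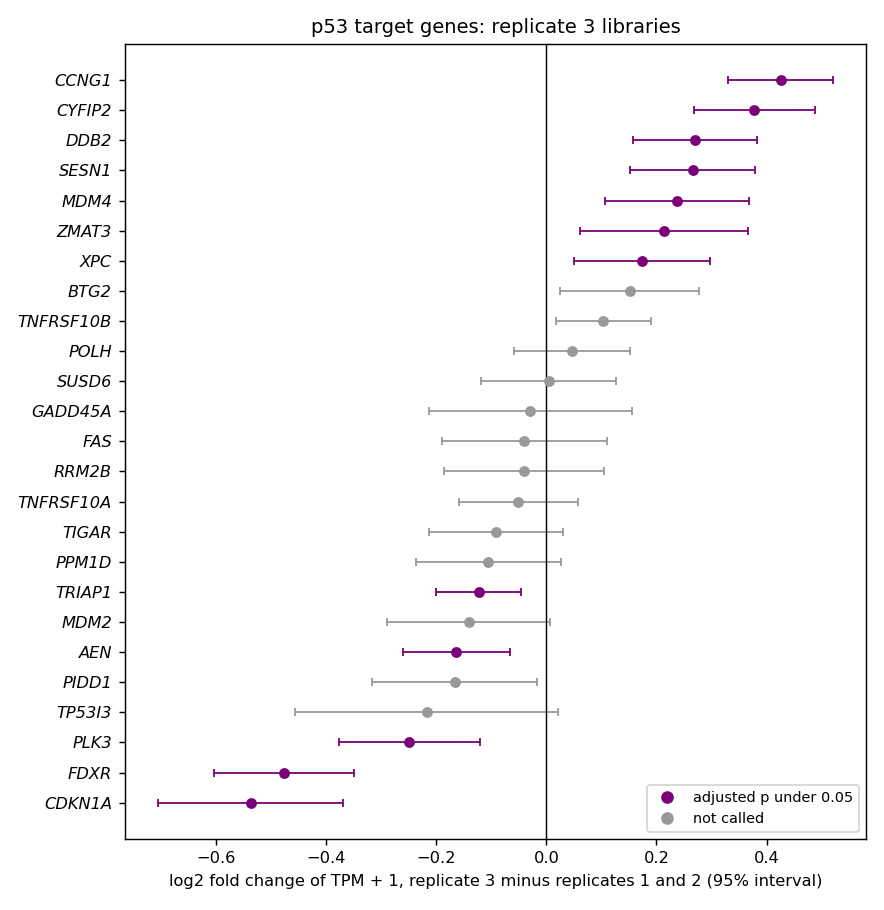
Log2 difference of TPM + 1 between the replicate 3 libraries and replicates 1 and 2, with its 95% interval, for the 25 tested p53 target genes; coloured points have an adjusted p under 0.05 in limma. CCNG1 at 0.43 and CDKN1A at -0.54 are the ends of the order, with 7 called genes above 0 and 5 below.

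With a term for the replicate 3 libraries in the fit, the knockdown comparison still called 0 of 25 members, and 1.76% of all genes (192 of 10939). That count over all genes was 34 without NTC replicate 3, 78 without NTC replicate 1 and 202 without NTC replicate 2. Leaving out a knockdown library gave 90 to 132, and 0 members were called in each of these fits. With all libraries and the term, the lowest adjusted p among the members was 0.0895, that of BTG2. With replicates 1 and 2 alone, 0 of 25 members and 14 of all genes were called, and the log2 fold change was -0.20 for FAS, -0.22 for BTG2, -0.10 for TNFRSF10A and -0.20 for CDKN1A.

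A wider list of 60 p53 targets gave no call either, and leaned downward less. Of the 48 that were tested, limma called 0 in the mean of the knockdown groups against NTC. Their median log2 fold change was -0.01, with 28 of the 48 below 0. For the members the median was -0.05, with 19 of 25 below 0, and of all tested genes 41.7% were below 0. PMAIP1, which encodes the BH3-only death protein NOXA, had 101, 100.5 and 97.5 TPM in KHSRPi#1, 107, 99.2 and 104 TPM in KHSRPi#2, and 83.5, 93.9 and 95.4 TPM in NTC. All 6 knockdown libraries were above all controls, against 3.1% of all tested genes, and its log2 fold change was 0.16 (limma adjusted p = 0.503). TRAFD1 was also above all controls in this way, with 0.08 (limma adjusted p = 0.704). IER5, an immediate early gene, had -0.14 (limma adjusted p = 0.593). TNFRSF10D, a decoy receptor of TRAIL, had -0.17 (0.621) and ATF3, a stress-induced transcription factor gene, -0.16 (0.634). In TNFRSF10D and in BAX all 6 knockdown libraries were below all controls, against 1.57% of all tested genes. The log2 fold change of BAX was -0.10 (limma adjusted p = 0.636). Between replicate 3 and replicates 1 and 2, 8 of the 48 were higher and 9 lower, against 18.7% higher and 11.6% lower of all tested genes. ORAI3, a calcium channel gene, was higher by 0.72 and BBC3, which encodes the death protein PUMA, by 0.36, while PRDM1, a transcription factor gene of plasma cell differentiation, had a log2 difference of -0.44.

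Of a list of 30 genes of p53 regulation 26 were tested, and limma called 0 in the mean of the knockdown groups against NTC. H2AFX, the gene of the histone H2AX that is phosphorylated at DNA breaks, came nearest. It had 61.9, 72.9 and 69.7 TPM in KHSRPi#1, 65.4, 65.9 and 67.2 TPM in KHSRPi#2, and 83.5, 77.8 and 85.4 TPM in NTC. All knockdown libraries were below all controls, against 1.57% of all tested genes. Its log2 fold change was -0.29 (SE 0.06, limma adjusted p = 0.171). With the term for replicate 3 the limma adjusted p was 0.0131, which became 0.0642 without NTC replicate 1 and 0.116 without NTC replicate 3. Leaving out any other single library, with the term, gave a limma adjusted p of 0.00955 to 0.0436. Without the term, leaving out 1 library gave 0.177 to 0.579. PRKDC and ATR, kinases of the damage response, had log2 fold changes of 0.15 (limma adjusted p = 0.724) and 0.14 (0.742).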

How the data were processed

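Values come from a single table that the authors deposited, with TPM for each symbol in 9 libraries and the same total in each column. Per the submitters' processing notes the genome was hg38; the name of the table gives STAR, and no source used here gives its version, the way reads were counted or the annotation. Read totals are unknown, so the replicates alone show the precision.

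A fit in limma 3.58.1 (R 4.3.3) of log2(TPM + 1) held all libraries and the 10939 genes whose TPM averaged 1 or more, with trended eBayes and two-sided tests. Adjustment was by Benjamini-Hochberg over those genes, at a threshold of 0.05. On simulated data with known changes, the fit for the mean of the knockdown groups against NTC called 45.6% of 57 genes changed 1.25-fold. It called 87.5% of 72 changed 1.5-fold and 95.8% of 71 changed 2-fold, among 10939. That simulation changed 200 genes and drew independent noise for each library, without a shared replicate 3 split. In the data 9 genes were called, and fewer calls make the adjusted threshold stricter. These shares may thus be too high for the members. The members and lists were chosen with earlier results of these data known. All members are named. Of each other list, up to 4 genes with the smallest adjusted p and any called in a group comparison are named. Examples for replicate 3, and wider-list targets whose groups did not overlap, were added after their values were seen. COP1 and H2AX were matched through older symbols. Positions and 3' UTRs are from GENCODE 29. The response element was sought in 300-base RefSeq windows in place of the wider region first intended, and GADD45A, TNFRSF10A, TNFRSF10B, RRM2B, TP53INP1 and PHLDA3 were not searched. Some named items of these lists are not reported here.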

Additional observations from a re-analysis of the deposited data

How the results depend on the processing

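The count of 0 members called held in all 4 comparisons of the groups under every alternative tried (pseudocounts of 0.1 and 5, no filter or a mean TPM of 5, 2 rescalings, a term for replicate 3, replicates 1 and 2 only, fits of only the groups compared, and each library left out), except that the replicate block called 1 member, BTG2 (limma adjusted p = 0.0420), for the mean of the knockdown groups. The replicate numbers were not taken as pairs, because same-numbered libraries deviated together with correlations of 0.0398 to 0.628, and NTC replicate 1 correlated best, at 0.336, with a KHSRPi#1 library of another number. Over all genes that comparison called 9, with the block 152, with the replicate 3 term 192, and 3 to 7 without 1 library. The KHSRPi#2 median was -0.10 after quantile normalization. The count of members called between replicate 3 and the rest ran from 7 to 13 without 1 library, with no share of all genes beside it. The cause was not tested.

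Fold changes near 0 changed sign. For the mean of the knockdown groups, TP53I3 gave -0.020 after quantile normalization, TRIAP1 -0.014 after median-ratio rescaling, and with replicates 1 and 2 only CCNG1 gave 0.010, TRIAP1 -0.0017 and CYFIP2 0.0039. For replicate 3, SUSD6 gave -0.0255 after median-ratio rescaling and -0.041 after quantile normalization. For KHSRPi#2 against KHSRPi#1, TNFRSF10A gave -0.0020 after quantile normalization. Leaving out 1 library, with or without the replicate 3 term, gave for the mean comparison MDM2 -0.026 to 0.16, MDM4 -0.10 to 0.038, SESN1 -0.091 to 0.039, RRM2B -0.048 to 0.11, XPC -0.099 to 0.0073, DDB2 -0.13 to 0.074, ZMAT3 -0.13 to 0.0043, TP53I3 -0.12 to 0.17, FDXR -0.24 to 0.046, CCNG1 -0.12 to 0.15, PLK3 -0.15 to 0.013, TRIAP1 -0.040 to 0.050, PPM1D -0.077 to 0.029 and CYFIP2 -0.089 to 0.13. It gave for replicate 3 GADD45A -0.080 to 0.029, RRM2B -0.12 to 0.023 and SUSD6 -0.022 to 0.032, for KHSRPi#1 MDM2 -0.065 to 0.12, and for KHSRPi#2 against KHSRPi#1 TNFRSF10A -0.022 to 0.077, TNFRSF10B -0.0018 to 0.092, CDKN1A -0.12 to 0.26 and MDM2 -0.0088 to 0.14.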
